A study of Mus musculus with 8 samples.

Results

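The lysosomal cathepsins described here are 9 genes, Ctsa, Ctsb, Ctsc, Ctsd, Ctsh, Ctsk, Ctsl, Ctss and Ctsz, out of 19938 genes that had a probe set with exactly 1 gene symbol. They were chosen by name as proteases of the lysosome, and each had 1 such probe set, so that no choice between probe sets was needed. Their RNA was measured in cells sorted from spontaneous tail tumors of TAX-LUC mice, which carry the HTLV-1 oncogene Tax under the human granzyme B promoter together with a luciferase reporter driven by the viral long terminal repeat. All 4 mice carried both transgenes. The 2 control mice were IL-15+/+ and the other 2 were IL-15-/-, a deletion made on a C57BL/6 background and crossed into the mixed C57BL/6 and FVB background of the transgenic strain. Replicate 1 of each genotype (mouse 1 below) was 14 months old and replicate 2 (mouse 2) was 12 months old.

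Each tumor was split by sorting for CD16/32, the low-affinity Fc receptors, into CD16/32HI cells, which the labels call malignant, and CD16/32LO cells, called tumor infiltrating. Every combination of population and genotype thus has 2 arrays, 8 in all, and the CD16/32HI and CD16/32LO arrays of the same genotype and replicate number were taken as cells of the same mouse. Values are RMA signals on the log2 scale, so that a difference of 1 is a doubling, and they compare arrays for a given gene, not genes with each other. With 2 arrays in a group, the number of arrays limits the precision. The p-values rest on the spread between these few arrays or mice and partly on a spread estimated over all genes. An exception is the fit on the mean of the 2 arrays of each mouse without IL-15-/- mouse 1. Its standard error was 0.338 for every cathepsin, so that its p-values rest on the spread over all genes alone. Genotype comparisons within a population counted the 2 arrays of a mouse as separate. In sorted bulk RNA, fewer cells of a type and less RNA per cell cannot be told apart.

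Cathepsins are made as inactive precursors, carried to the acidic lysosome largely by mannose 6-phosphate receptors, and activated there by cleavage. Most belong to the papain family of cysteine proteases (Ctsb, Ctsc, Ctsh, Ctsk, Ctsl, Ctss and Ctsz), whereas Ctsd is an aspartic protease and Ctsa a serine carboxypeptidase. Macrophages are rich in them and use them to break down engulfed material and to prepare peptides for MHC class II, and neutrophils and cytotoxic lymphocytes depend on cathepsin C to activate the serine proteases of their granules. Cystatins and stefins are inhibitors of those of the papain family.

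The promoters of members are shown first, because Ctsd was the member whose IL-15-/- arrays all lay above its IL-15+/+ arrays and because Ctss and Ctsk are neighbours that ran in opposite directions between the populations. RefSeq promoter windows of the GRCm38.p6 build, 250 bases before to 50 after a start, were at hand for 7 of the 9 genes (8 windows, with 2 starts for Ctsa), and those of Ctsb and Ctsh were not. For Ctsd, Ctss and Ctsk the 250 bases before the start are printed, and for Ctsa (second start) and Ctsc a stretch of 30 bases. Capitals mark GTCACGTG, the element bound by the lysosomal regulators of the TFEB family, GAGGAAGT, a form of the site of the myeloid factor PU.1, and GAAANNGAA, the core of interferon response elements, each on either strand.
Ctsd (chr7:142387828-142388077, minus strand): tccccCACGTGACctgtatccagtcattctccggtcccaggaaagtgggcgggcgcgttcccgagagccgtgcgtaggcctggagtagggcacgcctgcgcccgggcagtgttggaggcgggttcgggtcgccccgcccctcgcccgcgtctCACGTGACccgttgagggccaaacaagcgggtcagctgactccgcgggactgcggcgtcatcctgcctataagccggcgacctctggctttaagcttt
Ctsa (chr2:164833743-164833772, plus strand): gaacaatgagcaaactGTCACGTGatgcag
Ctsc (chr7:88277923-88277952, plus strand): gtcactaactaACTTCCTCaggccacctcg
Ctss (chr3:95526536-95526785, plus strand): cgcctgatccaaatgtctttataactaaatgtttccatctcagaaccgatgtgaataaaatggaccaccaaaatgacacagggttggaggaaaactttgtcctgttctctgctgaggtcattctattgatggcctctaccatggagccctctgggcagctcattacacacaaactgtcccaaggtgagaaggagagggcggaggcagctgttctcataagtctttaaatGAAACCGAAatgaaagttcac
Ctsk (chr3:95498960-95499209, plus strand): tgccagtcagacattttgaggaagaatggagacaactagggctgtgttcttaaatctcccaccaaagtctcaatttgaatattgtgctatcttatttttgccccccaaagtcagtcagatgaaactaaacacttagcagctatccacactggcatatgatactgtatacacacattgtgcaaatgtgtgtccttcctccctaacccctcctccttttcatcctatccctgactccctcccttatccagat

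GTCACGTG stood in the Ctsd window 245 and 98 bases before the start and in the Ctsa window 14 bases before the second start and again, on the other strand, from base 6 counted from that start, and 2.25% of all 32851 windows hold it. Its inner part CACGTG, held by 7.15% of windows, was also present without the outer bases in the Ctsl window, 236 bases before a start that lies inside the annotated gene. GAGGAAGT, on the other strand, lay 151 bases before the Ctsc start, and in Ctss it began 2 bases before the start and ran across it, so that it is not in capitals above. It is held by 3.2% of windows. GAAANNGAA began 21 bases before the Ctss start, with 8.56% of windows holding it. In the windows of Ctsk and Ctsz and at the first start of Ctsa none of these letter strings was found. Such matches describe the sequence and are not evidence of binding.

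Before the cathepsins, the samples themselves need a remark. In 3 of the mice the CD16/32HI array had the higher signal of Fcgr2b, which encodes CD32 (10.98, 10.38 and 10.82 against 9.31, 9.18 and 8.87 in CD16/32LO cells), and in IL-15-/- mouse 1 the order was turned, with 9.13 on the array labelled CD16/32HI and 10.97 on the array labelled CD16/32LO. Mice that followed their labels are, below, those with the first order of Fcgr2b. Fcgr3, which encodes CD16, did not follow the sort. Its CD16/32HI minus CD16/32LO differences were 0.33, -0.34 and 0.23 in the 3 mice and -0.21 in IL-15-/- mouse 1. The mean signal of 12 macrophage marker genes was 9.21 to 9.74 on the CD16/32HI arrays of the 3 mice and 7.65 to 7.92 on their CD16/32LO arrays, but 7.70 and 9.56 in the remaining mouse, and 15 neutrophil markers ran the opposite way (7.18 to 7.37 against 9.21 to 9.74, and 9.61 and 7.57). Labels were kept as deposited, and the tests on cathepsins below are given with and without this mouse. That it ran against its labels was known from earlier results of these data when the fits without it were chosen. The 12 measured T and NK cell markers had means of 5.27 to 6.17 on the arrays labelled malignant, near the array medians of 5.62 to 5.93, and of 7.63 and 7.37 in CD16/32LO cells of IL-15+/+ mice. Signals of Il15 itself lay between 5.18 and 6.88 in IL-15+/+ and between 5.22 and 6.54 in IL-15-/- arrays, but many of its probes lie outside the replaced exons and do not check the deletion. Xist was at 3.92 to 4.64 on all IL-15+/+ arrays and at 10.08 to 10.75 on all IL-15-/- arrays, so that sex cannot be told apart from genotype. The arrays were normalized in 3 sets, the 4 arrays of replicate 1 in the first and each genotype of replicate 2 in a set of its own, so that the genotypes share a set only in replicate 1.

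All 9 cathepsins were above the array median on each of the 8 arrays. Ctsk came closest, by 0.20 at its lowest, and the other 8 were at least 2.37 above. They are described first by population and then by genotype.

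**Figure D1:**
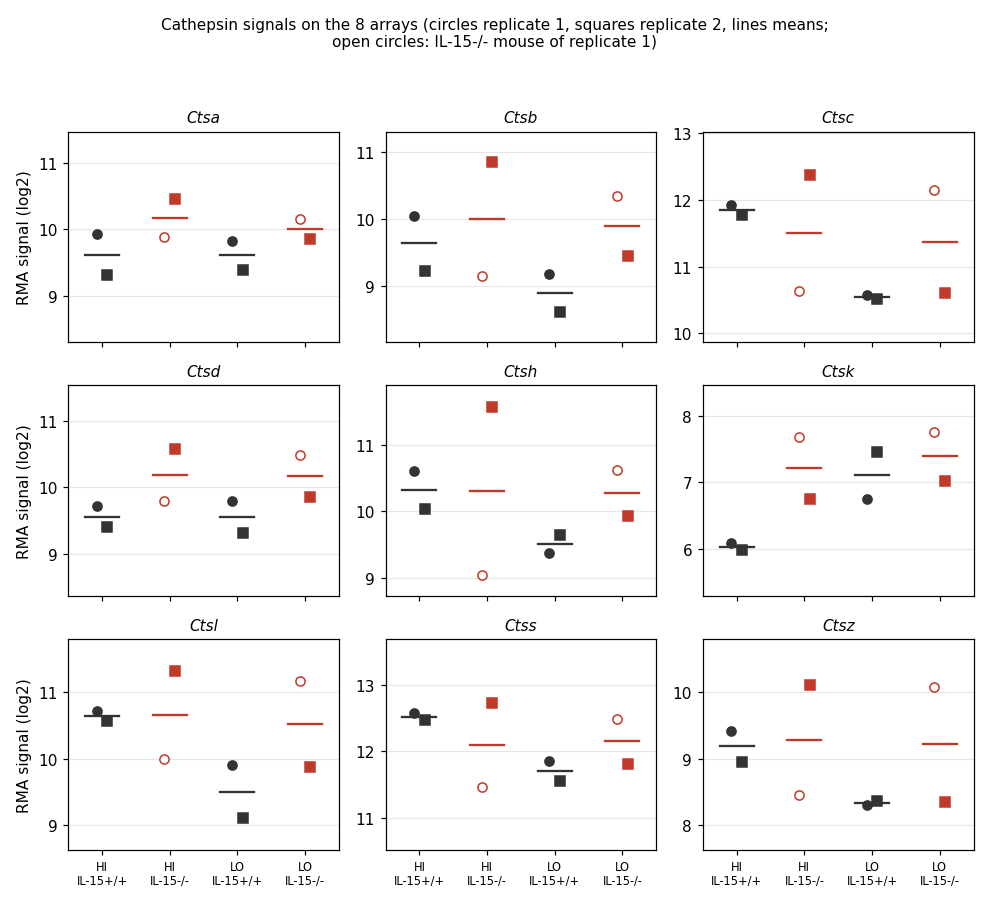
RMA signals (log2, vertical axes of equal span) of the 9 cathepsins on the 8 arrays, grouped by population (CD16/32HI, CD16/32LO) and genotype. Circles are replicate 1, squares replicate 2, lines the mean of the 2 arrays, and open circles IL-15-/- mouse 1, whose points are the lowest in CD16/32HI and the highest in CD16/32LO for Ctsb, Ctsc, Ctsh, Ctsl, Ctss and Ctsz.

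In the 3 mice whose arrays followed their labels, 6 of the 9 cathepsins were higher in CD16/32HI cells (Ctsb, Ctsc, Ctsh, Ctsl, Ctss and Ctsz, by 0.85 to 1.46 on the log2 scale), Ctsk was higher in CD16/32LO cells, and Ctsa and Ctsd did not pass the test. These calls are from limma within mice at a Benjamini-Hochberg adjusted p under 0.05, and over all 21789 probe sets 6.67% were called higher and 7.62% lower in CD16/32HI cells. The median difference was 0.97 over the 9 cathepsins and 0.028 over all probe sets. The same 7 genes were called in the 2 IL-15+/+ mice alone, where 4.65% and 5.53% of probe sets were called higher and lower. With all 4 mice none of the 9 was called, nor was any other gene (0.0% of probe sets, while 257 had an unadjusted p under 0.05), and the cathepsins had adjusted p-values of 0.92 to 0.993.

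**Figure D2:**
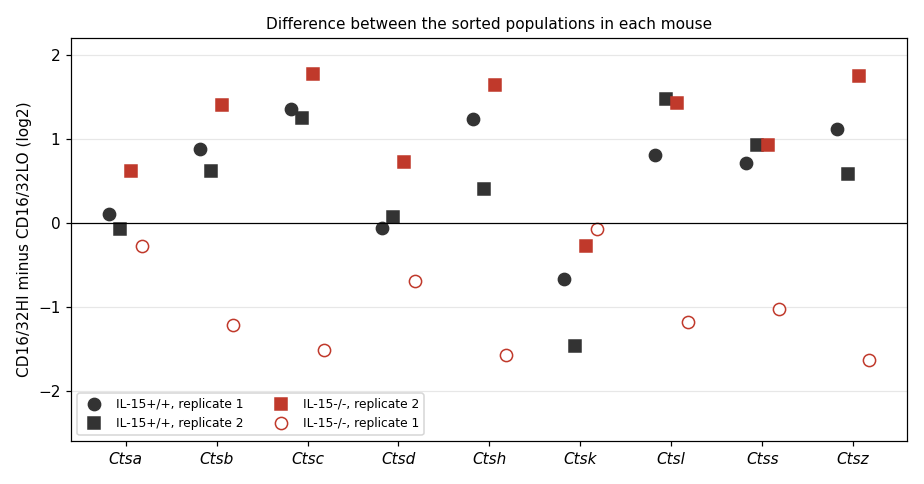
Difference between the CD16/32HI and the CD16/32LO array of each mouse (log2, vertical axis) for the 9 cathepsins, with 1 point per mouse. The 3 filled points of Ctsb, Ctsc, Ctsh, Ctsl, Ctss and Ctsz lie above 0 and the open point of IL-15-/- mouse 1 below it, and all 4 points of Ctsk lie below 0.

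Ctsc, the dipeptidyl peptidase that activates granule serine proteases, differed most. In CD16/32HI cells of IL-15+/+ mice its signal was 11.93 and 11.77, against 10.58 and 10.52 in CD16/32LO cells, and in IL-15-/- mouse 2 it was 12.37 and 10.60. The populations did not overlap in these mice, with a difference of 1.46 (2.75-fold, SE 0.155, adjusted p = 0.00042 from limma, 3 mice). In IL-15-/- mouse 1 the arrays labelled CD16/32HI and CD16/32LO were at 10.64 and 12.15, each close to the opposite population of the other mice.

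Ctss, the protease that trims the invariant chain from MHC class II molecules, had CD16/32HI signals of 12.57 and 12.47 and CD16/32LO signals of 11.86 and 11.55 in IL-15+/+ mice, and 12.73 and 11.81 in IL-15-/- mouse 2. Its difference was nearly equal in these mice (0.71, 0.92 and 0.92), giving 0.85 (1.80-fold, SE 0.14, adjusted p = 0.0037). Replicate 1 of IL-15-/- stood at 11.47 in CD16/32HI and 12.49 in CD16/32LO, a difference of -1.02.

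Ctsl, an endopeptidase with a broad range of substrates, was at 10.71 and 10.57 in CD16/32HI cells of IL-15+/+ mice and at 9.90 and 9.11 in their CD16/32LO cells. IL-15-/- mouse 2 had 11.31 and 9.88. The groups were separate, by 1.23 on average (2.35-fold, SE 0.17, adjusted p = 0.00144), and mouse 1 of that genotype had 9.99 and 11.17.

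Ctsb, which is both an endopeptidase and a carboxypeptidase, varied between mice as well as between populations. Its CD16/32HI signals were 10.05 and 9.22 in IL-15+/+ mice and 10.85 in IL-15-/- mouse 2, against 9.17, 8.61 and 9.44 in CD16/32LO cells. The lowest CD16/32HI array thus lay below the highest CD16/32LO array, although within each of these mice CD16/32HI was the higher (difference 0.97, 1.95-fold, SE 0.174, adjusted p = 0.00599). In the remaining mouse the 2 arrays were at 9.14 and 10.35.

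Ctsh, an aminopeptidase, had CD16/32HI signals of 10.60, 10.03 and 11.57 and CD16/32LO signals of 9.37, 9.64 and 9.93 in the same mice. The populations were separate, and the size of the gap differed between mice, from 0.40 to 1.64 (mean 1.09, SE 0.22, adjusted p = 0.0102). Values in IL-15-/- mouse 1 were 9.04 and 10.61, the first being the lowest of all 8 arrays.

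Ctsz, a carboxypeptidase, was at 9.42, 8.95 and 10.11 in CD16/32HI and at 8.31, 8.37 and 8.35 in CD16/32LO cells. Its CD16/32LO signals hardly varied and all lay below the CD16/32HI signals (difference 1.15, 2.22-fold, SE 0.21, adjusted p = 0.00628). The mouse that ran against its labels had 8.45 and 10.08, the first close to the CD16/32LO and the second to the highest CD16/32HI signal of the other mice.

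Ctsk, the collagen-degrading protease of osteoclasts, ran the other way. The 3 mice had CD16/32HI signals of 6.08, 5.98 and 6.74 and CD16/32LO signals of 6.75, 7.45 and 7.02, so that the populations were barely separate (6.74 against 6.75). With each array centred on its median they overlapped, the highest CD16/32HI signal being 6.72 and the lowest CD16/32LO signal 6.66. Within each of these mice CD16/32LO was the higher, by 0.81 on average (1.75-fold, SE 0.213, adjusted p = 0.0349). In IL-15-/- mouse 1 both arrays were high, at 7.68 and 7.76, and differed by -0.07, so that Ctsk was the single called cathepsin whose sign was not turned there. Ctsk and Ctss lie 17.4 kb apart on chromosome 3 (95499210 to 95509387 and 95526786 to 95556405), and their differences between the populations had opposite signs in each of the 3 mice.

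Ctsa, which also protects lysosomal sialidase and galactosidase, and Ctsd, the main aspartic protease of lysosomes, were not called. Ctsa was at 9.93, 9.31 and 10.46 in CD16/32HI cells, against 9.83, 9.39 and 9.85 in CD16/32LO cells (difference 0.21, SE 0.167, adjusted p = 0.485). Ctsd was at 9.72, 9.40 and 10.58 and at 9.79, 9.32 and 9.86 (difference 0.24, SE 0.177, adjusted p = 0.446). In the IL-15+/+ mice both genes differed between the populations by at most 0.10 in size, while in IL-15-/- mouse 2 they were 0.61 and 0.72 higher in CD16/32HI cells.

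The turned sign in IL-15-/- mouse 1 was not particular to cathepsins. Of the 7 members with 1 sign in the other 3 mice, 6 had the opposite sign there, and of 10159 probe sets with 1 sign in those mice 84.6% did. Of 12 macrophage markers, 10 were called higher in CD16/32HI cells of the 3 mice (Mrc1, the macrophage mannose receptor, by 2.70 and the complement component C1qa by 2.67), while 14 of 15 neutrophil markers were called lower (Cxcr2 by -3.24, Csf3r by -3.07), as were 8 of 12 T and NK cell markers. The part of these cell types in the cathepsin differences was not tested.

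By group mean, and with all mice, the lowest signal was that of CD16/32LO cells of IL-15+/+ mice for every cathepsin but Ctsk, whose lowest was CD16/32HI of IL-15+/+ mice (6.03). In Ctsa, Ctsb, Ctsd, Ctsk and Ctsz both IL-15-/- groups came first, for example Ctsd at 10.19 in CD16/32HI and 10.17 in CD16/32LO cells against 9.56 in both IL-15+/+ groups. In Ctsc, Ctsh and Ctss the highest was CD16/32HI of IL-15+/+ mice (11.85, 10.32 and 12.52). The IL-15-/- groups, each holding an array of mouse 1, lay within 0.18 of each other for all 9 genes, and with all 4 mice no difference between genotypes or between populations passed the test.

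Whether cathepsin RNA differed between the genotypes, which here cannot be told apart from sex, was asked within each population. In CD16/32HI cells none of the 9 was called between the genotypes, where 0.0229% of probe sets were (5 of 21789, and 1070 had an unadjusted p under 0.05). The differences, IL-15-/- minus IL-15+/+, ran from -0.42 for Ctss to 1.18 for Ctsk, with a median of 0.09, against 0.094 over all probe sets. Ctsk had IL-15+/+ signals of 6.08 and 5.98 and IL-15-/- signals of 7.68 and 6.74, so that the genotypes did not overlap (2.26-fold, SE 0.391, adjusted p = 0.854). Both IL-15-/- arrays were above both IL-15+/+ arrays for Ctsk and Ctsd, as for 24.1% of all probe sets.

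Without IL-15-/- mouse 1 the IL-15-/- side of this comparison was 1 array. Then all 9 differences were positive, from 0.21 for Ctss to 1.25 for Ctsh (adjusted p = 0.811 to 0.963), with a median of 0.84 against 0.123 over all probe sets. None was called, where 0.0413% of probe sets were. The signs of Ctsc, Ctsh and Ctss thus turned with this mouse.

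In CD16/32LO cells all 9 differences were positive and none was called (0.0367% of probe sets, 8 in number, with 417 at an unadjusted p under 0.05). They ran from 0.28 for Ctsk to 1.02 for Ctsl (SE 0.525, adjusted p = 1.0), with a median of 0.76 against 0.13 over all probe sets. For 5 members, Ctsa, Ctsb, Ctsc, Ctsd and Ctsh, both IL-15-/- arrays exceeded both IL-15+/+ arrays, as for 24.2% of probe sets. With each array centred on its median these were 4, without Ctsc. Leaving out IL-15-/- mouse 1 brought the median to 0.24 and the range to -0.08 for Ctsk and 0.56 for Ctsb, again with none called (0.119% of probe sets).

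No cathepsin had a difference between the genotypes that was called as different between the populations (0.0% of probe sets called, 578 at an unadjusted p under 0.05, adjusted p = 0.878 to 0.997 for the 9). When either array of IL-15-/- mouse 2 was left out, 6 of the 9 were called, as were 13.0% of probe sets, but the IL-15-/- side was then the mouse that runs against its labels alone. Without that mouse none was called, and all 9 differences were positive, 0.11 for Ctss to 0.91 for Ctsz (adjusted p = 0.999).

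Averaging the 2 arrays of each mouse removes the population labels from the comparison. This was chosen after the data had been seen. On these means 7 of the 9 cathepsins, all but Ctsh and Ctss, were higher in both IL-15-/- mice than in both IL-15+/+ mice, as were 26.9% of probe sets. With arrays centred on their medians these were 5, Ctsa, Ctsb, Ctsd, Ctsl and Ctsz. The differences ran from 0.01 for Ctss to 0.73 for Ctsk with a median of 0.49, against 0.117 over all probe sets. None was called, where 0.17% of probe sets were (adjusted p = 0.771 to 0.996). Without IL-15+/+ mouse 1 the IL-15+/+ side was 1 mouse, the one with the lower Ctsb mean (8.91 against 9.61). Ctsb then differed by 1.03 and was called, as were 0.941% of probe sets. With 1 control mouse left, this call cannot be told apart from a difference of that mouse alone. Without IL-15-/- mouse 1 the IL-15-/- side was 1 mouse, and its mean lay above both IL-15+/+ means for all 9 cathepsins (8 with centred arrays, without Ctsk), as for 46.9% of probe sets. The differences then ran from 0.16 for Ctss to 0.88 for Ctsb with a median of 0.52, and none was called (adjusted p = 0.619 to 1.0), where 0.477% of probe sets were. Within replicate 1, whose arrays share a normalization set and an age, 7 of 9 mouse means were higher in the IL-15-/- mouse, with differences from -0.23 for Ctss to 1.30 for Ctsk. Within replicate 2, all 9 were, from 0.16 for Ctsk to 1.23 for Ctsb. The array medians there were 5.62 and 5.65 in the IL-15+/+ and 5.86 and 5.93 in the IL-15-/- mouse. This offset is part of each difference in replicate 2. With centred arrays Ctsk was at 6.20 and 7.63 in IL-15+/+ mouse 2 and at 6.72 and 6.93 in IL-15-/- mouse 2. The share of all probe sets was not counted within replicates.

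**Figure D3:**
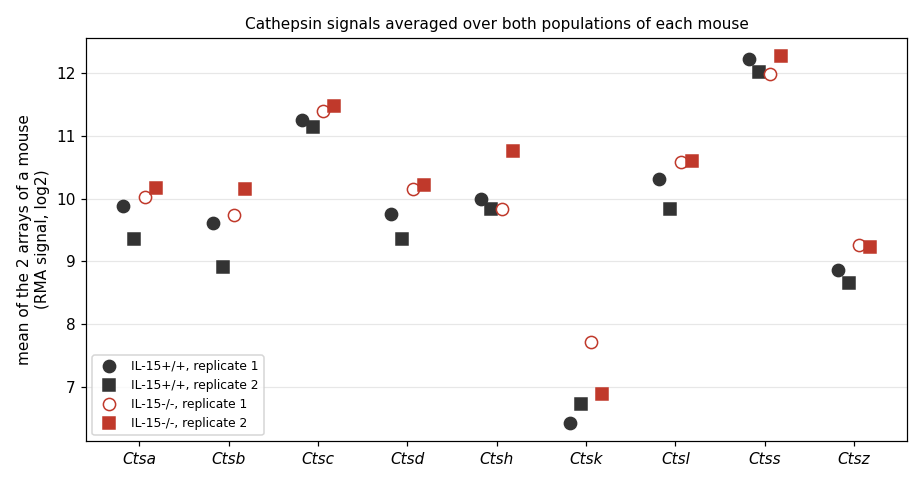
Mean of the CD16/32HI and CD16/32LO signals (RMA, log2, vertical axis) of each mouse for the 9 cathepsins, black for IL-15+/+ and red for IL-15-/- mice, circles for replicate 1 and squares for replicate 2. Both red points lie above both black points for all but Ctsh and Ctss, and the red points of Ctsd (10.15 and 10.22) and Ctsz (9.26 and 9.23) nearly coincide.

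Ctsd was the one member for which all 4 IL-15-/- arrays lay above all 4 IL-15+/+ arrays, as did 3.2% of probe sets. Its IL-15+/+ signals were 9.72, 9.40, 9.79 and 9.32 and its IL-15-/- signals 9.80, 10.58, 10.49 and 9.86. The gap between the groups was small, from 9.79 to 9.80, and it was kept with arrays centred on their medians. Without IL-15-/- mouse 1, Ctsd was again the one member with both IL-15-/- arrays above all 4 IL-15+/+ arrays, as 15.3% of probe sets were. The mouse means of 9.76 and 9.36 against 10.15 and 10.22 differed by 0.62 (1.54-fold, SE 0.227, adjusted p = 0.806). The difference was 0.39 in replicate 1 and 0.86 in replicate 2, and 0.66 without IL-15-/- mouse 1. Ctsa came close to the same order, its IL-15-/- array of lowest signal (9.85) lying below a single IL-15+/+ array (9.93).

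Some cell type markers differed between the genotypes. On mouse means 6 of 12 T and NK cell markers were called lower in IL-15-/- mice, with Gzma, the granzyme of cytotoxic lymphocytes, at -2.46 (adjusted p = 3.15e-05). Gzma was at -2.48 without IL-15-/- mouse 1. The list's mean signal was 5.27 to 5.76 on IL-15-/- and 5.69 to 7.63 on IL-15+/+ arrays. None of 12 macrophage markers was called, with a median difference of 0.09, of 15 neutrophil markers Mmp9 was called higher, and of 7 epithelial markers Epcam was called lower (-1.52, adjusted p = 0.0275). Mmp9 differed by 1.61, Epcam by -1.17 and the neutrophil marker Ngp by -1.39 without IL-15-/- mouse 1. Fibroblast markers were not called with all mice. Dcn was at 9.25 and 10.45 in IL-15-/- mouse 2 and at most at 6.51 on the other arrays, so that its high signal was that of 1 mouse. Without IL-15-/- mouse 1 the IL-15-/- side was this mouse alone, and Dcn differed by 3.87 in CD16/32HI and 4.18 in CD16/32LO cells. The part of these cells in the genotype values of the cathepsins was not tested.

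The remaining genes of the cathepsin system were read from lists chosen with earlier results of these data known, and unless another comparison is named their values are CD16/32HI minus CD16/32LO (log2) in the 3 mice that followed their labels. Of 12 other measured cathepsin genes, Ctsf was called higher in CD16/32HI cells (0.55) and Ctse, an aspartic protease of endosomes, and Ctsw, a cathepsin of cytotoxic lymphocytes, were called lower (-1.27 and -0.96). The list's median was 0.08. Between the genotypes none was called in either population.

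Among 12 measured inhibitors none was called higher in CD16/32HI cells, and Stfa2 and Cst7 were called lower. The differences of 7 of the 12 were positive, and the list's median was 0.01. Stfa2, a stefin of myeloid cells, had signals of 6.01, 5.53 and 4.77 in CD16/32HI cells, against 8.70, 9.50 and 8.26 in CD16/32LO cells, a difference of -3.38 (SE 0.222, adjusted p = 4.32e-05). This was larger in size than that of any of the 9 cathepsins, and opposite in sign to 8 of them. Cst7, which encodes cystatin F, an inhibitor of cathepsin C, differed by -1.23. Stfa3 was called lower in the IL-15+/+ mice alone, and in IL-15-/- mouse 2 both of its arrays were high (7.44 and 7.67, against 3.90 to 5.94 in IL-15+/+ mice). In IL-15-/- mouse 1 it was at 6.06 in CD16/32HI and 4.05 in CD16/32LO. On mouse means Stfa3 differed between the genotypes by 1.73 with all mice (not called). Without IL-15-/- mouse 1, with 1 IL-15-/- mouse left, it differed by 2.98.

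Genes that route or activate cathepsins split in direction. Lgmn, the asparaginyl endopeptidase that processes several of them, was higher in CD16/32HI cells, with 10.27, 9.72 and 11.19 against 8.02, 7.94 and 8.05 (difference 2.39, SE 0.231, adjusted p = 0.00025). Igf2r, the large mannose 6-phosphate receptor, was lower there, with 5.53, 4.95 and 5.08 against 7.49, 7.00 and 7.78 (difference -2.24, SE 0.174). The alternative sorting receptor Sort1 was lower as well (-1.75), and Mitf, of the TFEB family, was higher (0.64, adjusted p = 0.046). Tfeb, Tfe3 and 7 others of the 13 measured were not called.

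**Figure D4:**
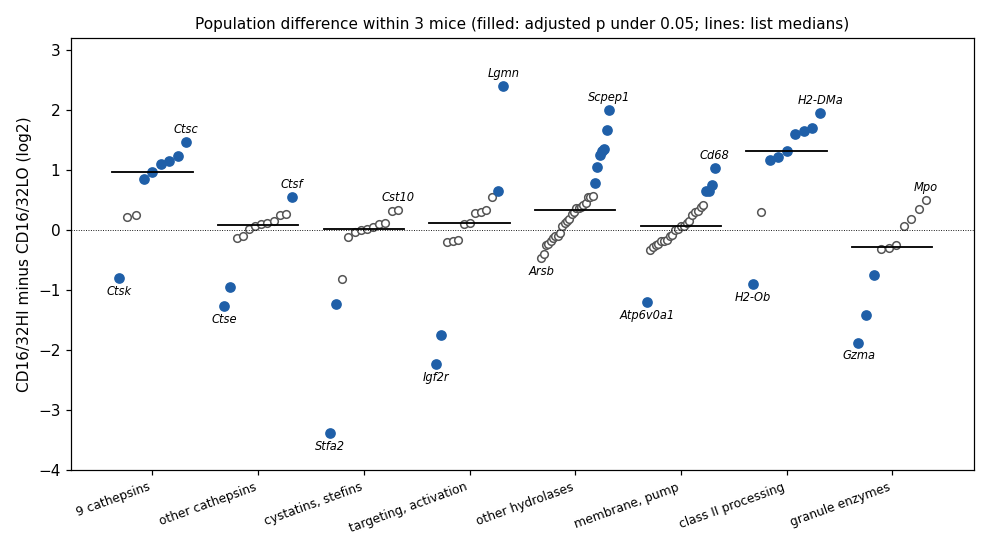
Difference between CD16/32HI and CD16/32LO cells (log2, vertical axis) within the 3 mice that followed their labels, for each measured gene of 8 lists, 1 point per gene ordered by value within its list. Filled points passed the test (adjusted p under 0.05), lines are list medians, and the lowest and highest gene of each list are named, among them Ctsc at 1.46, Lgmn at 2.39 and Stfa2 at -3.38.

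Other lysosomal hydrolases were called in 1 direction only, 7 of 30 higher and none lower in CD16/32HI cells. They were Scpep1 (2.00), the galactosylceramidase Galc (1.67), the acid phosphatases Acp5 (1.35) and Acp2 (1.31), the saposin precursor Psap (1.24), the cholesterol carrier Npc2 (1.04) and the glucuronidase Gusb (0.78). The median of the list was 0.33. Of 25 membrane and proton pump genes, Cd68, Npc1, Lamp1 and Clcn7 were higher (0.65 to 1.03) and the pump subunit Atp6v0a1 was lower (-1.21), with a median of 0.06. On mouse means all 25 of these membrane and pump genes had positive genotype differences (median 0.37 against 0.117 over all probe sets, none called). So they had without IL-15-/- mouse 1, with 1 IL-15-/- mouse left (median 0.49 against 0.123). The share of all probe sets with a positive difference was not counted. The arrays of IL-15+/+ mouse 2 had the lowest medians (5.62 and 5.65 against 5.86 to 5.93), which raises such differences.

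Genes of MHC class II processing, the route in which Ctss acts, were called higher in CD16/32HI cells for 7 of 9, among them H2-DMa (1.94), the invariant chain Cd74 (1.69), the lysosomal thiol reductase Ifi30 (1.60) and the transactivator Ciita (1.32), and H2-Ob was lower (-0.91). Between the genotypes none was called in either population. Of 10 genes of granule enzymes, 9 for serine proteases and Mpo for the peroxidase of neutrophil granules, Gzma (-1.88), Gzmb (-1.42) and Gzmk (-0.75) were called lower in CD16/32HI cells, against the direction of Ctsc, and none was called higher. In the IL-15+/+ mice alone Mpo was called higher there (0.88, adjusted p = 0.0413). Gzma was also called between the genotypes in CD16/32LO cells (-3.61), with 8.80 and 7.37 in IL-15+/+ and 4.57 and 4.37 in IL-15-/- mice, while Ctsc was not (0.83, adjusted p = 1.0). Without IL-15-/- mouse 1 these differences were -3.71 (called) and 0.05 (not called). Over these lists 32 genes other than the 9 cathepsins were called between the populations in the 3 mice, and 29 of them had the opposite sign in IL-15-/- mouse 1, the exceptions being Gzma, Gzmb and Gzmk. Of all probe sets with 1 sign in the 3 mice, called or not, 84.6% had the opposite sign there.

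Among themselves, the cathepsins were most alike in Ctsa and Ctsd, whose signals, each centred on its own mean, differed by a root mean square of 0.153 over the 8 arrays, and in Ctsc and Ctsz (0.224). Ctsk was the least like the others, at 0.652 or more from each. The genes outside the family with the nearest profiles were, for Ctsa, Rpn2 (0.0754) and Cenpn, for Ctsb, Tspan4 (0.0849) and Car13, for Ctsc, Clock (0.112) and Opn3, and for Ctsd, Fdft1 (0.0966) and Gnptab. Gnptab, an enzyme that adds the mannose 6-phosphate tag to lysosomal enzymes, lay at 0.114. For Ctsh they were Cadm1 (0.137) and Spats2, for Ctsl, Trf (0.14) and Kctd12b, for Ctss, Dipk2a (0.0722) and Gbp7, and for Ctsz, Cyp27a1 (0.135) and the macrophage growth factor receptor gene Csf1r (0.149). Ctsk had no neighbour as close, with Adam8 at 0.321 and Usp17ld at 0.341. These distances are descriptions over 8 arrays of 4 mice.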

How the data were processed

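RNA of sorted cells from 4 mice was hybridised to 8 Affymetrix Gene 1.0 ST arrays, 2 in each of 4 groups. The deposited table holds 1 log2 signal for each probe set and array, made by the authors with RMA in Affymetrix Expression Console, per the submitters' processing notes, and versions were not given in the sources used here. Values were used as deposited. Of 35557 probe sets, 21789 had exactly 1 gene symbol in the platform annotation and were tested, 1621 had several and 12147 none. limma 3.58.1 in R 4.3.3 fitted the 4 group means for the genotype comparisons and the mouse as a fixed block for the population and interaction comparisons, with Benjamini-Hochberg adjustment over all 21789 and a threshold of 0.05. The fit was tested on simulated data with independent noise on each array, no mouse effects and large added changes. That test does not cover a mouse that runs against its labels. Normalization sets were found from values exactly equal between arrays, 11 to 106 a pair within sets and 0 between. The cathepsins, the gene lists and the fits without IL-15-/- mouse 1 were chosen with earlier results of these data known. All 9 cathepsins are named, with the 2 genes nearest to each by root mean square distance and, of each list, the called members or those of largest rise and fall. Alternatives were other normalizations, probe set choices, spread estimates and blocks, and leaving out arrays or mice. Averaging the arrays of each mouse was added after seeing the data.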

Additional observations from a re-analysis of the deposited data

Results flagged for a closer look

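Over the 4 mice of both genotypes, the difference between the CD16/32HI and CD16/32LO arrays of IL-15-/- mouse 1 stood far from the other 3 for Ctsc, at -1.51 against 1.25 to 1.77, and for Ctss, at -1.02 against 0.71 to 0.92. In both, the gap to the nearest mouse took up more of the whole range than Dixon's limit for 4 values allows. The other 7 cathepsins stayed within that limit. All 9 were looked at, and chance alone marks about 1 in 20 such groups.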

How the results depend on the processing

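With 2 arrays a group, a miss of the threshold says little, and most dependence was on IL-15-/- mouse 1. No cathepsin was called between the genotypes in either population under any alternative. In CD16/32HI cells 3 genes were called with the replicate block, 3 with probe sets above the median alone, 2 with the arrays of the population alone and 0 with the normalization set as a block, and in CD16/32LO cells 2 with that last block, against 5 and 8. The replicate block changed no call of a cathepsin. Deviations of same-numbered arrays correlated by 0.056 to 0.189 across genotypes, not all over 0.1, so that the numbers, which also give the age, were not taken as pairs there, and by 0.361 and -0.458 between the populations of IL-15+/+ and IL-15-/- mice. In CD16/32HI cells the sign of Ctsl (0.01) turned to -0.12 with centred arrays, -0.20 with quantile normalization and -0.23 with the normalization set as a block, that of Ctsz to -0.04 and -0.17 under the first 2, and that of Ctsb to -0.19 under the last. The interaction of Ctsd became -0.01 and -0.04, and the mouse-mean difference of Ctss -0.11 and -0.06, with centred arrays and quantile normalization. On mouse means 17, 23, 7 and 69 genes were called with centred arrays, quantile normalization, all probe sets and an intensity trend, against 37. In the IL-15+/+ mice alone 7 cathepsins and 2217 genes were called between the populations. The causes were not tested.

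Leaving out arrays or mice gave 2 to 9 genes in CD16/32HI and 3 to 26 in CD16/32LO cells, 0 to 7 cathepsins and 0 to 3114 genes between the populations, 0 to 6 cathepsins and 0 to 2831 genes for the interaction, and 0 to 1 cathepsin and 47 to 205 genes on mouse means. The CD16/32HI genotype differences then ran from -0.49 to 1.21 for Ctsb, -1.20 to 0.52 for Ctsc, -1.27 to 1.25 for Ctsh, -0.65 to 0.67 for Ctsl, -1.05 to 0.21 for Ctss and -0.74 to 0.92 for Ctsz, and that of Ctsk in CD16/32LO cells from -0.08 to 0.65. Population differences of Ctsa and Ctsd ran from -0.08 to 0.21 and from -0.23 to 0.24. Interactions ran from -0.29 to 0.59 for Ctsa, -1.95 to 0.66 for Ctsb, -2.81 to 0.46 for Ctsc, -0.70 to 0.72 for Ctsd, -2.38 to 0.83 for Ctsh, -2.32 to 0.30 for Ctsl, -1.83 to 0.11 for Ctss and -2.48 to 0.91 for Ctsz. Mouse-mean differences ran from -0.09 to 0.84 for Ctsh and from -0.13 to 0.16 for Ctss. Of 702 values of single cathepsins under an alternative, 602 kept sign and side of the threshold, 59 turned in sign and 41 passed the threshold in the same direction.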
